A study of Mus musculus with 6 samples.

Results

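The genes described here are 39 interferon-stimulated genes, a named set of genes that type I and type II interferons induce, picked by symbol from the 55011 gene symbols counted in whole visceral fat. All 39 symbols were found, and all 39 had enough counts to be tested. The libraries came from male C57BL/6 mice, 30 weeks old, kept on low-fat food for 14 weeks and then on high-fat food for 16 weeks. Visceral adipose tissue was taken at zeitgeber time 0 h. Every mouse carried Foxp3.Cre-YFP, a Cre recombinase with a fluorescent reporter under the control of Foxp3, a gene that defines regulatory T cells. There were 3 libraries labelled Bmal1WT and 3 labelled Bmal1KO. Bmal1, listed under its other symbol Arntl, is a core transcription factor of the circadian clock, and a Cre driven by Foxp3 acts in the few cells of fat that express Foxp3. The comparison asks how the fat of the 2 genotypes differs after the high-fat diet.

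Interferons are secreted proteins that warn cells of infection. Type I interferons, made by many cells, signal through the Ifnar1 and Ifnar2 receptor to a complex with Stat2 and Irf9 that binds a DNA element called the ISRE. Type II interferon, or interferon gamma, is made mainly by T cells and natural killer cells and signals through Ifngr1 and Ifngr2 to genes with a DNA element called GAS. Many genes answer to both. Guanylate binding proteins, immunity-related GTPases and Cxcl9 are classic responders to interferon gamma, while the IFIT, OAS and Mx genes and Isg15 are classic responders to type I interferon. In fat, macrophages, endothelial cells and adipocytes can all respond to interferons.

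The sequences below show the DNA elements described above, in 4 of the promoters that hold them. Isg15 held the most ISRE matches of all members, and Gbp7, together with Gbp5, the most GAS matches of the GTPase and chemokine genes. Ifit3 and Ifit3b are shown as near-identical copies; they hold as many ISRE matches as Bst2, Gbp3, Ifit1, Irgm1 and Oas1a. They come from RefSeq (build GRCm38.p6) and run from 250 bases before to 50 bases after the annotated start, 5′ to 3′ on the gene's strand. Capitals mark the ISRE core, which is GAAA, any 2 bases and GAAA again, searched on both strands (TTTC, any 2 bases and TTTC on the other), and the GAS core TTCNNNGAA, which reads the same on both strands.
Isg15, chr4:156200769-156201068, minus strand: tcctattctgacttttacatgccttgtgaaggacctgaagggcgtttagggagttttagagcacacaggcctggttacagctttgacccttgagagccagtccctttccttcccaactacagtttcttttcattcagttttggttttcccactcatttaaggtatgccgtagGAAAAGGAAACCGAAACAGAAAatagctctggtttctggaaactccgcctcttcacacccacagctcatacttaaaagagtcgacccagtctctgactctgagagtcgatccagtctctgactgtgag
Ifit3, chr19:34583279-34583578, plus strand: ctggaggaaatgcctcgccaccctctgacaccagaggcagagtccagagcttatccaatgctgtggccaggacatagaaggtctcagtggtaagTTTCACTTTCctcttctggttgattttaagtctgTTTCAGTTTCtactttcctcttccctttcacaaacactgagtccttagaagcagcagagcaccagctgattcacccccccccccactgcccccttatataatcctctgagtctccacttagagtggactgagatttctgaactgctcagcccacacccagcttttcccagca
Ifit3b, chr19:34607707-34608006, plus strand: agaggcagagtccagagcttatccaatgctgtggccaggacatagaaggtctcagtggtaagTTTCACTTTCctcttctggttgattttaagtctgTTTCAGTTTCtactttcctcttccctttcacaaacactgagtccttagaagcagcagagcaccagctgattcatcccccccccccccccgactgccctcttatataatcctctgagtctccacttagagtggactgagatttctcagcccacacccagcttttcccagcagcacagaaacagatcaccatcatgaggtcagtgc
Gbp7, chr3:142530086-142530385, plus strand: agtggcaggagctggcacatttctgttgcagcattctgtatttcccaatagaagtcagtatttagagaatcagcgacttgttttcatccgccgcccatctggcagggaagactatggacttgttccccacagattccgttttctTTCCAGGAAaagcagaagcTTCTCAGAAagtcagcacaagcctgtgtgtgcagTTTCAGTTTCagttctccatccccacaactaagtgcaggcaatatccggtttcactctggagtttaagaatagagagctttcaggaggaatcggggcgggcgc

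The Isg15 window held 3 matches to the ISRE core that overlap one another and begin 78, 72 and 66 bases before the start. Ifit3 and Ifit3b each held 2, and the aligned parts of their windows shared 258 identical bases with 2 mismatches and 14 gaps. Gbp7 held 1 ISRE core, 53 bases before the start, and 2 GAS cores, 106 and 87 bases before it. Of the 29 members with a promoter in the table, 19 held the ISRE core, or 65.5%, against 3.99% of all 27025 genes with a promoter. The GAS core was found in 7 of the 29, or 24.1%, against 9.55% of all genes. There were 5 members with both (Bst2, Gbp5, Gbp7, Igtp and Oas1a), and 1 ISRE match overlapped a GAS match. A match describes these letters in this window and shows no binding.

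Libraries held between 6514620 and 9529198 counts. Levels are given as CPM, counts scaled to the size of the library, always in the order of replicates 1, 2 and 3. The targeted gene Arntl ranged from 28.4 to 40.1 CPM in Bmal1WT and from 32.7 to 48.7 CPM in Bmal1KO, so whole-tissue RNA showed no lower level of it (log2 fold change 0.27, SE 0.22, adjusted p = 0.719 by edgeR's quasi-likelihood test). Foxp3 had 0 counts in the Bmal1WT libraries and 3, 0 and 2 in the Bmal1KO libraries, at or under the floor of 3 counts. Some libraries stood apart. Bmal1KO replicate 1 had counts on 30019 genes, against 19009 to 20145 in the other 5, and in Bmal1WT replicate 1 the 11 listed epididymis and testis genes took 2572 counts, where the other libraries had 2 to 26. The adipocyte gene Adipoq was between 1953 and 5498 CPM in the 6 libraries. In whole tissue, more cells of a type and more RNA per cell cannot be told apart.

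Between genotypes, no interferon-stimulated gene passed the test. Of the 39 members 0 were called (smallest adjusted p = 0.407), as were 0.0% of the 13859 genes tested with edgeR's quasi-likelihood test and Benjamini-Hochberg adjustment at 0.05. DESeq2 and limma voom also called 0 members, while DESeq2 called 0.417% of all genes and limma voom 0.0%. Members called were also 0 in edgeR without a filter on low counts (0.539% of all genes called), without Bmal1KO replicate 1 (1.09%) and without Bmal1KO replicate 2 (0.0414%). At an unadjusted p under 0.05 there were 3 members (Irf1, Ddx58 and Oas3), or 7.69%, against 9.31% of all genes. All 3 were higher in Bmal1KO, as were 5.05% of all genes at that p. Of the 39 members 34 were higher in Bmal1KO and 5 lower, with a median log2 fold change of 0.35 against 0.02 over all genes tested, of which 52.0% were higher.

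The shift was uneven across libraries. Bmal1KO replicate 2 had the highest level of the 6 libraries for 30 of the 39 members, where it was highest for 18.6% of all genes tested. It lay above all 3 Bmal1WT libraries for 33 members, or 84.6%, against 30.6% of all genes tested. Bmal1KO replicate 1 did so for 7 members, or 17.9%, against 29.6% of all genes. Bmal1KO replicate 3 did so for 6, or 15.4%, against 30.4%. Replicate 3 lay under all 3 Bmal1WT libraries for 16, or 41.0%, against 30.5% of all genes. Without Bmal1KO replicate 2 the count became 12 higher and 27 lower and the median log2 fold change -0.12. Leaving out replicate 2 of both groups, an alternative chosen after seeing the data, gave 24 higher and 15 lower with a median of 0.06, so the direction turned only where the Bmal1KO library alone was removed and the size was small in both cases. The 2 genotypes did not overlap for 2 members, Ddx58 and Oas3, both higher in Bmal1KO. That is 5.13% of members, against 15.7% of all genes tested, or 7.83% counting only genes higher in Bmal1KO.

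**Figure D1:**
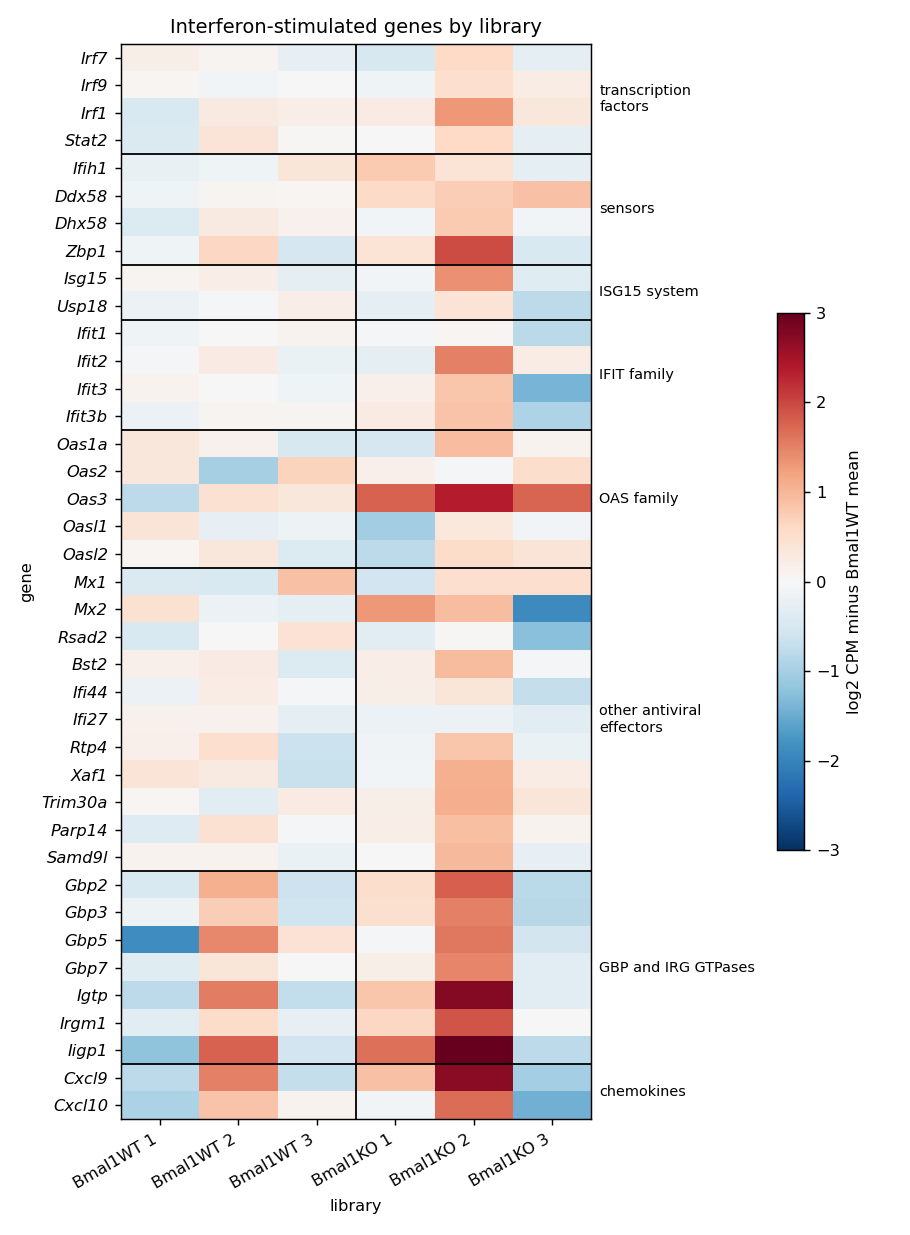
Level of the 39 interferon-stimulated genes in each library, as log2 CPM (prior count of 2) minus the mean of the 3 Bmal1WT libraries, with rows grouped by role and libraries in columns. Red, for values above that mean, fills most of the Bmal1KO replicate 2 column, and the GTPase and chemokine rows are also red in Bmal1WT replicate 2.

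**Figure D2:**
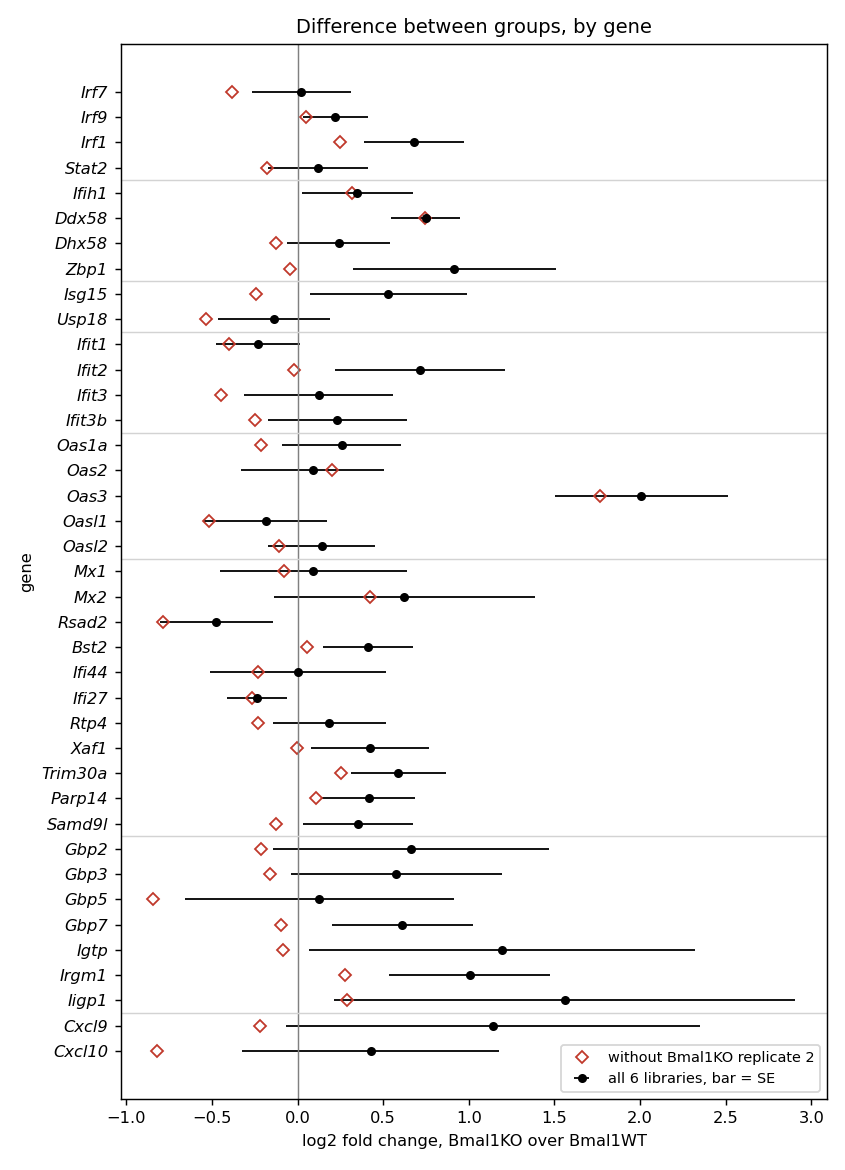
Log2 fold change of each member, Bmal1KO over Bmal1WT, from edgeR with all 6 libraries (black, bars are the SE) and without Bmal1KO replicate 2 (red diamonds). With all libraries 34 of 39 lie above 0, and without that library 12 do; Ddx58 and Oas3 stay above 0 in both.

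The transcription factors that carry the interferon signal were all nominally higher (4 of 4, median log2 fold change 0.17, none called). Irf1, a direct target of interferon gamma signalling, is shown as the one with the most counts. It was at 56.8, 94.6 and 89.2 CPM in Bmal1WT and 92.2, 194 and 98.8 CPM in Bmal1KO. The groups overlapped, since Bmal1KO replicate 1 lay inside the Bmal1WT range and replicate 3 just above it, and the log2 fold change of 0.68 (SE 0.29, adjusted p = 0.515) was 0.24 without Bmal1KO replicate 2. Exons of Irf1 overlap those of Gm17334 on the opposite strand, and these libraries do not mark strand. Irf7, which amplifies the making of type I interferon, was at 31.0, 29.1 and 23.5 CPM in Bmal1WT and 19.8, 41.7 and 23.1 CPM in Bmal1KO. Irf9 and Stat2, partners in the complex that binds the ISRE, ranged from 48.6 to 75.5 CPM and from 17.8 to 36.5 CPM over the 6 libraries, each highest in Bmal1KO replicate 2. Irf7 shares exon sequence with Phrf1 and Irf9 with Rnf31 in the annotation, so counts of this pair are less certain.

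Among the sensors of foreign or misplaced nucleic acid, Ddx58 differed most evenly. Ddx58 encodes RIG-I, a helicase that detects viral RNA ends, on chr4:40203773-40239828 (mm10). It was at 19.3, 22.3 and 21.8 CPM in Bmal1WT and 31.7, 35.6 and 39.2 CPM in Bmal1KO. Every Bmal1KO library stood above every Bmal1WT library, with means of 21.1 ± 1.62 and 35.5 ± 3.74 CPM (SD, n = 3). Its log2 fold change of 0.75 (SE 0.20) had adjusted p = 0.414 by edgeR's quasi-likelihood test and ranged only from 0.67 to 0.82 with 1 library left out. Bmal1KO replicate 2 did not lead here, unlike in most members. Zbp1, a sensor of Z-form nucleic acid that triggers cell death, followed the other pattern, at 22.1, 37.3 and 16.8 CPM in Bmal1WT and 32.2, 93.5 and 17.5 CPM in Bmal1KO. Its log2 fold change of 0.92 (SE 0.59, adjusted p = 0.659) was -0.042 without Bmal1KO replicate 2 and 0.35 without replicate 2 of both groups. Ifih1, or MDA5, the sensor of long double-stranded RNA, ranged from 11.3 to 24.4 CPM and was highest in Bmal1KO replicate 1. Dhx58, or LGP2, which tunes both helicases, ranged from 15.4 to 35.4 CPM.

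Isg15 encodes a ubiquitin-like protein that is attached to other proteins during the interferon response, and Usp18 the protease that removes it and also damps the type I receptor. Isg15, whose promoter above held the most ISRE cores, was at 8.78, 9.49 and 6.67 CPM in Bmal1WT and 7.82, 21.7 and 6.33 CPM in Bmal1KO. Bmal1KO replicate 2 stood above the other 5 libraries, which lay between 6.33 and 9.49 CPM. The log2 fold change was 0.53 (SE 0.46, adjusted p = 0.737), and -0.24 without that library. Usp18 was at 14.1, 15.7 and 18.5 CPM in Bmal1WT and 13.2, 21.4 and 9.18 CPM in Bmal1KO (fitted log2 fold change -0.14, SE 0.33, adjusted p = 0.915). The group means of Usp18 thus lay closer together than the Bmal1KO libraries did to each other, and its direction turned to 0.10 without Bmal1KO replicate 3.

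The IFIT proteins bind foreign RNA and block its translation. Bmal1WT libraries were close to each other for these 4 genes, with a median SD of 9.03% of the mean, against 60.2% in Bmal1KO. Ifit3 was at 55.1, 51.9 and 46.7 CPM in Bmal1WT and 56.7, 91.3 and 19.2 CPM in Bmal1KO. One Bmal1KO library thus stood above the Bmal1WT range, another just above its top and the third under it. The log2 fold change was 0.12 (SE 0.44, adjusted p = 0.948), and -0.45 without Bmal1KO replicate 2. Ifit3b, the near-identical neighbour with almost the same promoter, had the same order of libraries within Bmal1KO, at 10.3, 12.2 and 12.3 CPM in Bmal1WT and 13.7, 21.1 and 5.96 CPM in Bmal1KO; reads of 38 bases can be split between such copies, so neither level is certain. Ifit2 was at 4.68, 5.74 and 4.20 CPM in Bmal1WT and 3.91, 14.3 and 5.71 CPM in Bmal1KO (fitted log2 fold change 0.72, SE 0.49, adjusted p = 0.668). Without Bmal1KO replicate 2 the value was -0.021, and without replicate 2 of both groups it was 0.13. Ifit1 was at 31.9, 34.8 and 37.7 CPM in Bmal1WT and 33.5, 35.9 and 19.6 CPM in Bmal1KO, so that only Bmal1KO replicate 3 lay outside the Bmal1WT range.

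The OAS enzymes sense double-stranded RNA and make a short messenger that switches on an RNA-cutting enzyme, RNase L. Oas3, on chr5:120753098-120777661 (mm10), had the highest log2 fold change of all members and the smallest p. Its counts were 8, 21 and 21 for Bmal1WT and 43, 87 and 52 for Bmal1KO, or 0.913, 2.46 and 2.26 CPM against 6.47, 9.85 and 6.45 CPM. The lowest Bmal1KO library was well above the highest Bmal1WT library, with group means of 1.88 ± 0.842 and 7.59 ± 1.96 CPM (SD, n = 3). The log2 fold change of 2.01 (SE 0.50) had adjusted p = 0.407 with edgeR and 0.0840 with DESeq2, neither under 0.05, and ranged from 1.69 to 2.25 with 1 library left out. Per length its mean level was 0.670 CPM per kb of exon, near the lowest of the members at 0.560. The other 4 OAS genes did not share this. Oasl2, shown as the OAS gene with the most counts, was at 60.7, 73.4 and 43.8 CPM in Bmal1WT and 33.5, 85.5 and 76.4 CPM in Bmal1KO (fitted log2 fold change 0.14, SE 0.31, adjusted p = 0.911). Oas1a, one of several similar Oas1 copies, was at 30.5, 26.5 and 17.3 CPM in Bmal1WT and 17.0, 45.6 and 25.8 CPM in Bmal1KO (fitted log2 fold change 0.26, SE 0.35, adjusted p = 0.837). Both pairs of groups overlapped widely, and both values turned negative without Bmal1KO replicate 2. Without replicate 2 of both groups Oasl2 was at 0.09 and Oas1a at -0.15. Oas2 ranged from 4.45 to 14.5 CPM, with its lowest level in Bmal1WT replicate 2. Oasl1, which in mice restrains Irf7, ranged from 7.82 to 21.8 CPM, with its lowest level in Bmal1KO replicate 1.

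**Figure D3:**
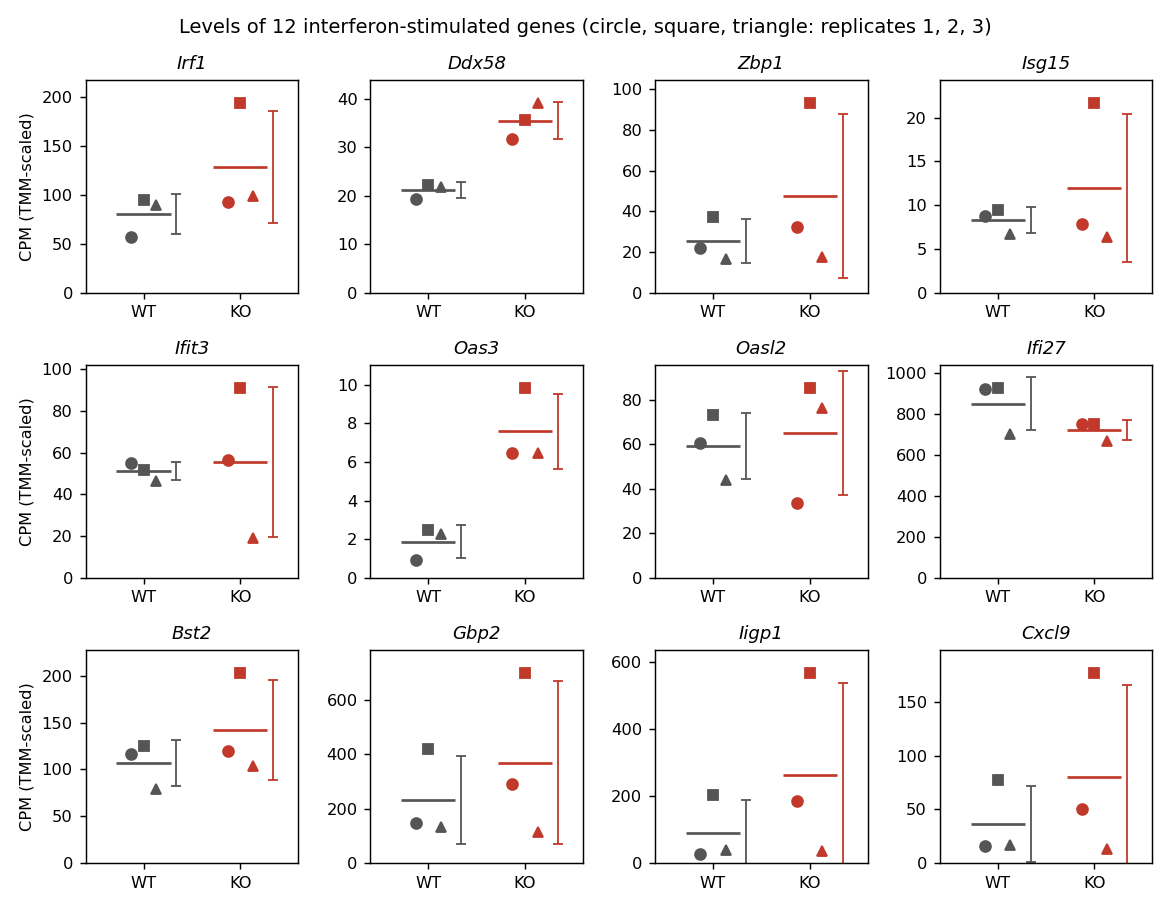
CPM of 12 members in each library (vertical axes start at 0 and differ in scale), with Bmal1WT in grey and Bmal1KO in red; horizontal lines are means and side bars ± SD of 3 libraries, cut off at 0. In the panels of Ddx58 and Oas3 the groups do not overlap, and in Gbp2, Iigp1 and Cxcl9 replicate 2, the square, is highest in both groups.

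The other antiviral effectors were 11 genes, 9 higher and 2 lower in Bmal1KO (median log2 fold change 0.35, none called). Ifi27, the member with the highest level per length at 536 CPM per kb of exon against a median of 7.42 over the members, was at 920, 928 and 701 CPM in Bmal1WT and 751, 749 and 667 CPM in Bmal1KO. Its libraries lay within a narrow band and Bmal1KO replicate 2 did not stand out (log2 fold change -0.24, SE 0.17, adjusted p = 0.693). Bst2, or tetherin, which holds budding viruses at the cell surface, was at 117, 125 and 79.4 CPM in Bmal1WT and 120.1, 203 and 103 CPM in Bmal1KO. Apart from replicate 2 the Bmal1KO libraries lay inside the Bmal1WT range, and the log2 fold change of 0.41 (SE 0.26, adjusted p = 0.647) was 0.05 without it. Trim30a, an inhibitor of Toll-like receptor signalling in mice, was at 23.7, 18.3 and 27.0 CPM in Bmal1WT and 25.7, 48.7 and 29.3 CPM in Bmal1KO (fitted log2 fold change 0.59, SE 0.28, adjusted p = 0.543; 0.25 without Bmal1KO replicate 2). Here Bmal1KO replicate 1 still lay inside the Bmal1WT range.

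Rsad2, or viperin, which makes a nucleotide that stops viral RNA synthesis, ran the other way at 26.8, 37.0 and 50.0 CPM in Bmal1WT and 29.2, 37.5 and 15.3 CPM in Bmal1KO. Like Ifit3, it was lowest in Bmal1KO replicate 3. Mx1 and Mx2 were scarce, between 2.56 and 7.42 CPM and between 0.496 and 6.62 CPM. Mx2 had 4 counts in Bmal1KO replicate 3, close to the floor. Ifi44 was also scarce, from 1.99 to 4.42 CPM. Rtp4, Xaf1, Parp14 and Samd9l, which are involved in RNA binding, cell death, ADP-ribosylation and translation control, ranged over the libraries from 30.2 to 84.5, 16.9 to 57.2, 29.1 to 72.1 and 16.6 to 39.2 CPM, in that order. All 4 were highest in Bmal1KO replicate 2.

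The guanylate binding proteins and immunity-related GTPases, which attack the vacuoles of intracellular microbes, varied widely between libraries of 1 genotype. All 7 were higher in Bmal1KO (median log2 fold change 0.66, none called), but all 7 were also highest in replicate 2 within each group. Gbp2 was at 147, 419 and 132 CPM in Bmal1WT and 289.8, 699 and 115 CPM in Bmal1KO. Thus 1 Bmal1WT library stood above 2 of the 3 Bmal1KO libraries, and the log2 fold change of 0.66 had an SE of 0.81 (adjusted p = 0.826). Irgm1, a regulator of the other GTPases, was at 37.6, 68.4 and 39.2 CPM in Bmal1WT and 71.7, 173 and 46.4 CPM in Bmal1KO (fitted log2 fold change 1.00, SE 0.47, adjusted p = 0.553). Gbp7, shown above with both kinds of element, was at 39.1, 64.8 and 50.8 CPM in Bmal1WT and 57.0, 139 and 40.0 CPM in Bmal1KO (fitted log2 fold change 0.61, SE 0.41, adjusted p = 0.663). Without Bmal1KO replicate 2 these values were -0.21 for Gbp2, 0.28 for Irgm1 and -0.10 for Gbp7, but that comparison keeps the high Bmal1WT replicate 2. There 2 of the 7 genes were higher in Bmal1KO and 5 lower, with a median log2 fold change of -0.10. Replicate 2 of both groups was also left out, an alternative chosen after seeing the data. The values of Gbp2, Irgm1 and Gbp7 were then 0.53, 0.62 and 0.11. In that setting 7 of 7 genes were higher in Bmal1KO with a median log2 fold change of 0.53 and 0 called.

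Iigp1 showed the pattern most fully, with 25.4, 202 and 39.8 CPM in Bmal1WT and 185, 567 and 34.4 CPM in Bmal1KO. Igtp had the same order of replicates within groups, at 34.8, 174 and 36.3 CPM in Bmal1WT and 107, 406 and 48.0 CPM in Bmal1KO; its annotated exons overlap those of its relative Irgm2. In both genes the high Bmal1WT library exceeded the low Bmal1KO library severalfold. With all 6 libraries the log2 fold change was 1.56 for Iigp1 (SE 1.35, adjusted p = 0.761 by edgeR) and 1.20 for Igtp (SE 1.13, adjusted p = 0.780). Without Bmal1KO replicate 2 the values were 0.29 for Iigp1 and -0.08 for Igtp. Replicate 2 of both groups was also left out, an alternative chosen after seeing the data. The values were then 1.74 for Iigp1 (SE 0.67, adjusted p = 0.890 by edgeR) and 1.13 for Igtp (SE 0.36, adjusted p = 0.755). Gbp3 ranged from 27.9 to 144 CPM and Gbp5 from 0.799 to 11.1 CPM. Members of this family resemble each other, so short reads may be split between them.

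The chemokines Cxcl9 and Cxcl10 draw T cells and natural killer cells through the receptor Cxcr3. Cxcl9 was at 15.5, 77.5 and 16.4 CPM in Bmal1WT and 50.1, 177 and 13.2 CPM in Bmal1KO. The lowest of all 6 libraries was a Bmal1KO library and the second highest a Bmal1WT library, so the log2 fold change of 1.14 came with an SE of 1.21 (adjusted p = 0.802). It was -0.22 without Bmal1KO replicate 2 and 0.98 without replicate 2 of both groups. Cxcl10 was at 6.05, 21.4 and 12.7 CPM in Bmal1WT and 11.1, 38.4 and 4.22 CPM in Bmal1KO, again with replicate 2 highest in each group. Its log2 fold change was 0.43 (SE 0.75, adjusted p = 0.881 by edgeR). It was -0.82 without Bmal1KO replicate 2 and -0.30 without replicate 2 of both groups.

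The role groups differed in how libraries of 1 genotype varied. For the 9 GTPase and chemokine genes, Bmal1WT replicate 2 stood at a median of 3.00 times the mean of the other Bmal1WT libraries, and Bmal1KO replicate 2 at 3.82 times the mean of the other Bmal1KO libraries. For the other 30 members the medians were 1.10 and 1.77. Over all genes tested they were 0.989 and 0.988. In all, 7 members exceeded a ratio of 2 in both groups, each a GTPase or chemokine, while 0.693% of all genes did. Across the 39 genes, deviations from the group mean of same-numbered libraries correlated at r = -0.042, 0.82 and 0.42 for replicates 1, 2 and 3, against -0.0695, 0.0942 and -0.0305 across all genes tested. Unlike-numbered libraries gave -0.66 to 0.42 across the 39 genes. Genes share these libraries and deviations within a group sum to 0, so these values describe the libraries only. The replicate numbers are not stated to pair mice.

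The summed level of cytotoxic lymphocyte markers was high in the same libraries as that of the GTPase and chemokine genes, though not every marker was. The summed level of the 9 genes was 352, 1122 and 364 CPM in Bmal1WT and 845, 2354 and 331 CPM in Bmal1KO. A list of 10 natural killer and cytotoxic lymphocyte genes summed to 37.6, 142 and 54.8 CPM in Bmal1WT and 121, 213 and 74.3 CPM in Bmal1KO. The same 3 libraries, Bmal1KO replicate 2, Bmal1WT replicate 2 and Bmal1KO replicate 1, were highest in both lists and in the same order. Ccl5, a chemokine that other cells also make, and Nkg7 held most of the second sum, at 129 and 40.0 CPM in Bmal1KO replicate 2. The sum is thus no measure of cytotoxic cells alone. Other markers differed: Prf1, or perforin, was at 0.566 CPM there against 2.05 to 6.80 CPM in Bmal1WT, Klrb1c was lowest of the 6 libraries there at 0.679 CPM, and Tbx21 was lowest in Bmal1WT replicate 2 at 0.234 CPM. The 9 T cell genes summed to 14.9, 61.0 and 35.8 CPM in Bmal1WT and 76.1, 162 and 119 CPM in Bmal1KO. They were likewise highest in Bmal1KO replicate 2, but Bmal1KO replicate 3, low for Cxcl9 and Gbp2, came second. Of the T cell genes 9 of 9 were higher in Bmal1KO, 5 of them with no overlap (7.83% of all genes) and 6 at an unadjusted p under 0.05 (9.31% of all genes). Of the cytotoxic genes 6 of 8 tested were higher, 0 without overlap and 0 at that p. In either list 0 were called. The part of these cells in the levels of the members was not tested.

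**Figure D4:**
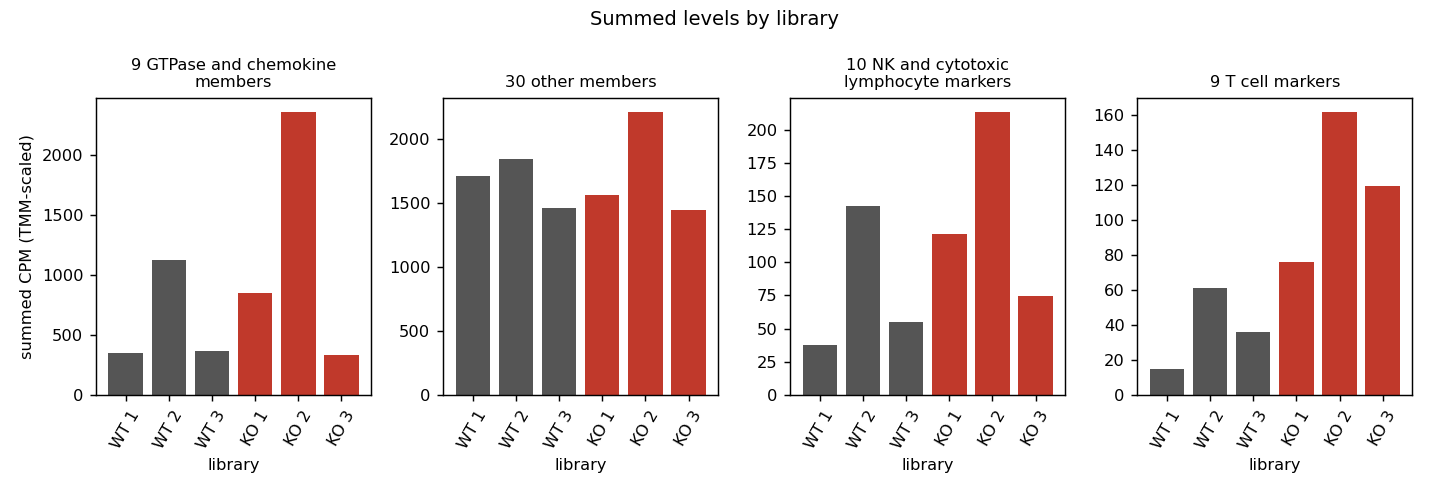
Summed CPM in each library (bars, Bmal1WT grey and Bmal1KO red, axes from 0) of the 9 GTPase and chemokine members, the other 30 members, 10 natural killer and cytotoxic lymphocyte markers and 9 T cell markers. The first panel runs from 331 to 2354 CPM and has its tallest bars at replicate 2 of each group, as does the cytotoxic panel. Most of the cytotoxic sum in Bmal1KO replicate 2 came from Ccl5 and Nkg7. The 30 other members span 1449 to 2214 CPM.

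Macrophage genes, 8 of 9 higher in Bmal1KO, summed to 6028, 5444 and 4160 CPM in Bmal1WT and 3594, 7601 and 7461 CPM in Bmal1KO. Bmal1KO replicates 2 and 3 thus lay above Bmal1WT for the sum of macrophage genes, and replicate 1 lay under it. Of the members, Bmal1KO replicate 2 lay above the Bmal1WT range for 33 (30.6% of all genes tested). Bmal1KO replicate 1 lay above that range for 7 (29.6%) and under it for 8 (27.8%). Bmal1KO replicate 3 lay under the range for 16 members, inside it for 17 and above it for 6. Over all genes tested it lay under that range for 30.5% and above it for 30.4%. Endothelial genes, 6 of 6 lower, summed to 474, 298 and 642 CPM in Bmal1WT and 322, 203 and 219 CPM in Bmal1KO. Adipocyte genes, 8 of 8 lower, summed to between 15118 and 19840 CPM in Bmal1WT and were at 20928, 9504 and 8291 CPM in Bmal1KO. Of these 3 lists 0 genes were called. Plasmacytoid dendritic cells, the strongest makers of type I interferon, were followed by 8 markers. These summed to 84.1, 94.7 and 102 CPM in Bmal1WT and 116, 110 and 159 CPM in Bmal1KO, with no overlap. Of the 4 tested, 3 were higher, 1 was lower and 0 were called. Tcf4, which many cells express, made up most of each sum, and Ly6d, which B lineage cells also express, was at 52.1 CPM in Bmal1KO replicate 3. Siglech, a defining marker, had 0, 5 and 4 counts for Bmal1WT and 13, 7 and 14 for Bmal1KO, with no overlap at up to 1.95 CPM. Its Bmal1WT counts lay close to the floor of 3 counts. Levels of Ccr9 and Cox6a2, also on this list, are not shown. Klk1, Pacsin1 and Dntt stayed at or under 1.08 CPM. The part of these cells too was not tested.

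The interferons themselves were hardly seen. Of 21 ligand genes 14 had 0 counts in all 6 libraries, Ifnb1 among them, and none could be tested. A count of 0 allows up to 3 counts, or 0.323 to 0.451 CPM depending on the library. Ifng had 1 count in Bmal1WT replicate 3 and 2 in Bmal1KO replicate 2, and 0 elsewhere. Ifna4 and Ifna14 had 7 counts each in Bmal1KO replicate 1, the library with counts on the most genes, and 0 elsewhere. A difference in interferon transcripts between genotypes was thus not detectable at this depth.

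Of 5 receptor genes tested 3 were higher, 2 lower and 0 called. Ifnar1, a chain of the type I receptor, was at 44.0, 53.8 and 61.3 CPM in Bmal1WT and 68.0, 66.4 and 95.8 CPM in Bmal1KO, with no overlap (log2 fold change 0.53, SE 0.20, adjusted p = 0.477). Its partner Ifnar2 did not overlap either, but lay the other way, at 187, 188 and 201 CPM in Bmal1WT and 173, 177 and 161 CPM in Bmal1KO (fitted log2 fold change -0.17, SE 0.14, adjusted p = 0.724). Ifngr1, of the interferon gamma receptor, was at 435, 408 and 431 CPM in Bmal1WT and 420.1, 285 and 402 CPM in Bmal1KO, lowest in the library where the GTPases were highest. Jak1, a kinase that the receptors of both interferon types use, was at 129, 135 and 105 CPM in Bmal1WT and 139.7, 137 and 156 CPM in Bmal1KO, with no overlap (fitted log2 fold change 0.23, SE 0.16, adjusted p = 0.666 by edgeR).

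Among 9 inhibitors of the pathway 6 were higher and 3 lower (median log2 fold change 0.33). Pias1, a SUMO ligase that damps the pathway, had a log2 fold change of 0.40 (SE 0.19, adjusted p = 0.543). Socs1, the feedback inhibitor of Jak kinases, had one of 1.27 (SE 0.87, adjusted p = 0.662) at 0.799, 2.81 and 0.215 CPM in Bmal1WT and 2.11, 5.21 and 1.86 CPM in Bmal1KO, once more highest in replicate 2 of each group. Of 13 genes upstream of interferon 12 were higher (median 0.12). Tlr9, a DNA sensor of B cells and plasmacytoid dendritic cells, had counts of 3, 6 and 12 for Bmal1WT and 14, 37 and 50 for Bmal1KO (fitted log2 fold change 2.40, SE 0.72, adjusted p = 0.414), with no overlap. B cell markers were also highest in Bmal1KO replicate 3, at 280.2 CPM summed against 25.3 to 52.7 CPM in the other 5 libraries. They were lowest, at 25.3 CPM, in Bmal1KO replicate 2, where Tlr9 had 37 counts. Tlr7, a sensor of single-stranded RNA, had a log2 fold change of 0.98 (SE 0.41, adjusted p = 0.499).

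Beyond the 39 members, 61 further interferon-induced genes were listed and 57 tested. Of the tested genes 45 were higher and 12 lower in Bmal1KO (median log2 fold change 0.48, 0 called). The summed level of the 61, in which abundant genes weigh most, went the other way, with means of 7518 CPM in Bmal1WT and 6471 CPM in Bmal1KO. By library it was 7474, 7875 and 7205 CPM in Bmal1WT and 6913, 7733 and 4767 CPM in Bmal1KO. Bmal1KO replicate 2 thus lay inside the Bmal1WT range, and replicate 3 was the lowest. At an unadjusted p under 0.05 there were 8 of the 57, against 9.31% of all genes. Groups did not overlap for 10 that were higher in Bmal1KO, against 7.83% of all genes, and for 2 that were lower. Bmal1KO replicate 2 was the highest of the 6 libraries for 35 of them, as it was for 18.6% of all genes. Genes of the Ifi200 family, nuclear DNA-binding proteins encoded in a cluster of similar copies, had the smallest p. Ifi207 was at 46.8, 50.7 and 51.4 CPM in Bmal1WT and 69.0, 109 and 67.0 CPM in Bmal1KO (fitted log2 fold change 0.72, SE 0.21, adjusted p = 0.414). Ifi205 was at 31.6, 25.9 and 20.7 CPM in Bmal1WT and 41.1, 40.3 and 41.8 CPM in Bmal1KO (fitted log2 fold change 0.66, SE 0.21, adjusted p = 0.418). Neither gene overlapped between groups, and for Ifi205 the Bmal1KO libraries lay close together with no lead of replicate 2. Relatives of the GTPases, picked after their values were seen, followed the replicate 2 pattern: Irgm2 was at 16.0, 62.5 and 19.2 CPM in Bmal1WT and 63.9, 155 and 22.1 CPM in Bmal1KO. Ifi47 was at 42.0, 124 and 33.5 CPM in Bmal1WT and 111, 311 and 54.2 CPM in Bmal1KO.

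**Figure D5:**
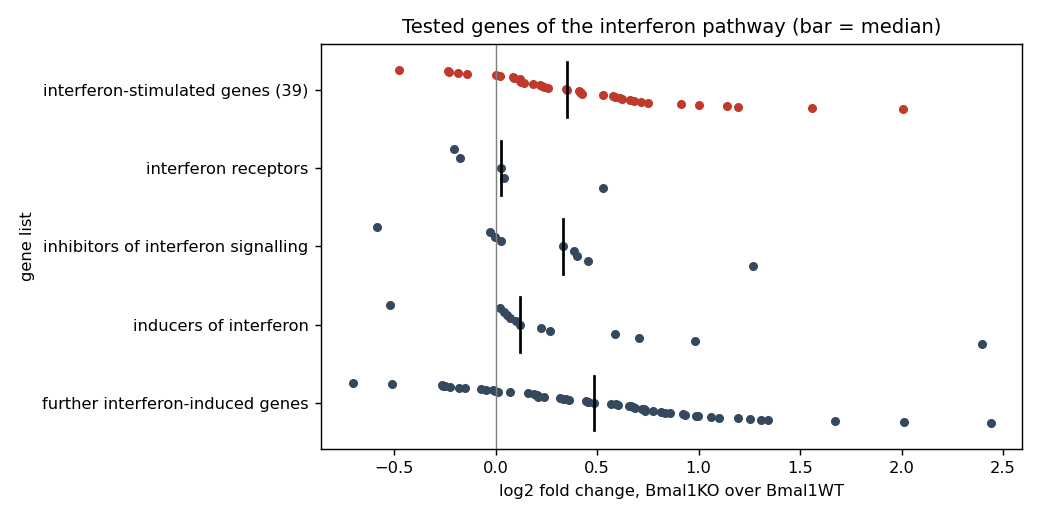
Log2 fold change, Bmal1KO over Bmal1WT (edgeR, all 6 libraries), of each tested gene of the 39 members and of 4 lists of the interferon pathway; black bars are medians. Medians run from 0.03 for receptors to 0.48 for the further interferon-induced genes, and no point passed the test over all genes.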

How the data were processed

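Whole visceral fat RNA was sequenced as 3 Bmal1WT and 3 Bmal1KO samples. Per the labels' protocols, cDNA was primed with oligo(dT), amplified from little RNA, cut by transposase and read as pairs of 38 bases, with no step named that marks strand or molecules. The authors deposited raw counts for each gene symbol, and the submitters' processing notes name STAR 2.7.3a, featureCounts and mm10. Which annotation they counted on, and what they did with multiply mapped reads, was not given in the sources used here. Sample numbers are not stated to be separate animals, so a p-value covers only the spread among these libraries, which may be technical.

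Counts were tested with edgeR 4.0.16 (R 4.3.3): filterByExpr, TMM scaling, robust quasi-likelihood F-test without covariates, Benjamini-Hochberg adjustment over 13859 genes, threshold 0.05. CPM uses TMM-scaled sizes. SE is the coefficient divided by the square root of F. The common dispersion was 0.0944. The test was tried on simulated data. Floors cover counting error only. Exon lengths and coordinates are from GENCODE M21 (mm10); 12 of 39 members share exon bases with another gene. The members, lists and role groups were chosen with earlier results of these data known. Levels in all libraries and fold changes are given for the most abundant member of each role group and for that of smallest p (2 in groups of over 4), and for the 2 genes of smallest p of most pathway lists; 1 gene and the list it belongs to are not reported here. Printed promoters were picked for the most ISRE matches or, in the GTPase and chemokine groups, GAS matches; among ties, Ifit3, Ifit3b and Gbp7 (over Gbp5) were picked after their values were seen. Alternatives were DESeq2 1.42.0, limma 3.58.1 voom with quality weights, other scalings and filters, the replicate number as a block, and libraries left out.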

Additional observations from a re-analysis of the deposited data

How the results depend on the processing

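No member was called under any of the 15 alternatives run, and the smallest adjusted p of a member was 0.0689 (Oas3, without a filter). Over all genes 0 were called with all 6 libraries, but 60 with DESeq2, 186 without a filter, and from 0 to 156 with 1 library left out (156 without Bmal1KO replicate 1, 6 without Bmal1KO replicate 2, 1 without Bmal1WT replicate 1). There were 61 without replicate 1 of both groups and 1 without replicate 2 of both groups. The last alternative was chosen after seeing the data.

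The median log2 fold change of the members ranged from -0.12 without Bmal1KO replicate 2 to 0.57 without Bmal1KO replicate 3, and was 0.06 without replicate 2 of both groups. With scaling by library size alone the median over all genes moved from 0.02 to 0.11 and that of the members from 0.35 to 0.44. Of the 17 members picked by level or smallest p in their role group, 10 turned direction under some alternative and 7 under none (Irf1, Ddx58, Oas3, Ifi27, Trim30a, Bst2 and Irgm1). With 1 library left out, Zbp1 ranged from -0.042 to 1.31, Usp18 from -0.53 to 0.10, Isg15 from -0.24 to 0.83, Ifit3 from -0.45 to 0.53, Ifit2 from -0.021 to 1.03, Oasl2 from -0.11 to 0.45, Oas1a from -0.21 to 0.53, Gbp2 from -0.21 to 1.40, Gbp7 from -0.10 to 0.93 and Cxcl9 from -0.22 to 2.33. Without replicate 2 of both groups, Isg15 was at -0.13, Ifit3 at -0.43 and Oas1a at -0.15, whereas Gbp2 (0.53), Cxcl9 (0.98), Gbp7 (0.11), Zbp1 (0.35), Ifit2 (0.13) and Oasl2 (0.09) were positive. Ifit3 was at -0.13 with limma voom. The cause was not tested.

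With the replicate number as a block, 0 genes and 0 members were called, 31 members were higher and 8 lower with a median of 0.26, and Ifit3 was at -0.12. At an unadjusted p under 0.05 the block gave 8 members, or 20.5%, against 8.09% of all genes; without it there were 3, or 7.69%, against 9.31%. The 8 were Irf1, Ddx58, Zbp1, Oas3, Igtp, Irgm1, Iigp1 and Cxcl9, all higher in Bmal1KO. The main fit used no block because nothing states that the numbers pair the samples. Deviations of same-numbered libraries correlated at -0.07, 0.09 and -0.03 over all genes. Deviations within a group sum to 0, so these values cannot settle whether the samples are paired. Depth limits the interferon ligands, which lay at or near the floor.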
